A study of Mus musculus with 22 samples.

Results

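The transcripts of 10 complement genes, C1ra, C1qa, C1qb, C1qc, C3, Cfb, Cfp, C3ar1, C5ar1 and Serping1, were followed in bone marrow-derived macrophages (BMDM) that had received lipopolysaccharide (LPS), a cell wall component of Gram-negative bacteria, or medium alone. All array probes whose RefSeq accession belonged to 1 of these 10 genes were taken, without regard to their values, which gave 13 probes out of 28033 tested, or 10 of 22330 genes. C1ra, C3 and Serping1 had 2 probes each and the other 7 genes had 1. Macrophages were grown from the femoral marrow of male C57BL/6 mice aged 10 to 14 weeks over 9 days in medium with M-CSF at 10 ng/ml, and all groups shared this culture. They were wild-type (wt), deficient in the p38 MAPK-activated kinase MK2 (MK2-/-), or deficient in both MK2 and its relative MK3 (MK2/3-/-), and were exposed for 360 min to 100 ng/ml LPS or to medium. The 22 one-colour arrays formed 6 groups, with 3 arrays for wt LPS and MK2/3-/- medium and 4 arrays for each of wt medium, MK2-/- medium, MK2-/- LPS and MK2/3-/- LPS. No group lacked MK3 alone. The deficient cells came from deficient mice, so the marrow precursors lacked the kinases too. The study's methods describe independent experiments, but the labels do not say which animals or cultures the replicates came from, so p-values measure the spread between these samples.

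Complement is a set of secreted and membrane proteins that tags microbes and dying cells and calls in phagocytes. In the classical pathway, C1q, a hexamer built from the products of C1qa, C1qb and C1qc, binds a surface and activates the protease C1r, which in turn cleaves C1s. All pathways meet at C3, whose larger fragment coats the target. Factor B (Cfb) supplies the protease of the alternative C3 convertase, and properdin (Cfp) stabilises it. The small fragments C3a and C5a act on the receptors C3ar1 and C5ar1, and the C1 inhibitor encoded by Serping1 blocks C1r and C1s. Most circulating complement comes from the liver, while C1q and properdin are made largely by macrophages and other myeloid cells.

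The signal of each spot was put on a log2 scale and quantile normalised over the 22 arrays, so levels are log2 intensities and differences are log2 ratios. All 13 probes had a value on every array. Mapkapk2, which encodes MK2, had a mean of 11.61 in MK2-/- LPS and 11.02 in MK2/3-/- LPS against 14.89 in wt LPS, and Mapkapk3, which encodes MK3, had 11.16 in MK2/3-/- medium against 13.13 in wt medium. MK2-/- LPS replicate 3 and MK2-/- medium replicate 3 had 0 of 4 Y-linked markers above background although they were labelled male. Xist, a marker of female cells, reached 7.66 on the highest array of MK2-/- LPS and 7.78 on that of MK2-/- medium. In the other groups it reached at most 5.79. Why these signals differ from the label was not tested. Many values of MK2-/- cells, though not all, are given with and without the arrays that lacked Y-linked signal. Each genotype lay on a slide of its own, so genotype and slide cannot be told apart when genotypes are compared directly, whereas an additive slide effect cancels in LPS against medium within a genotype and in differences of that response. Of 7 macrophage markers, 6 were well above background on all 22 arrays. Of 7 fibroblast or stroma markers, 4 were well above background on all arrays as well and none of them was below background throughout. For other cell types, 3 of 5 neutrophil, 2 of 5 B cell, 1 of 4 T cell, 2 of 4 dendritic cell and 2 of 3 mast cell markers were well above background on all arrays.

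C1ra lies in a cluster on chromosome 6 in which C1rl, C1ra, C1s1, C1rb and C1s2 are consecutive protein-coding genes. C1rb is a close copy of C1ra. Their upstream sequences are shown because 1 of the 2 C1ra probes and the C1rb probe were called between genotypes under LPS, as described below. The other C1ra probe was not called between genotypes in the fit of all arrays. The start of one gene also resembles a more distant stretch of the other. The 250 bases before each annotated start are given 5′ to 3′ on the gene's strand from RefSeq (GRCm38.p6), with C1ra at chr6:124512371-124512620 (+) and C1rb at chr6:124570180-124570429 (+). Capitals mark the stretch that aligned between these windows.
C1ra: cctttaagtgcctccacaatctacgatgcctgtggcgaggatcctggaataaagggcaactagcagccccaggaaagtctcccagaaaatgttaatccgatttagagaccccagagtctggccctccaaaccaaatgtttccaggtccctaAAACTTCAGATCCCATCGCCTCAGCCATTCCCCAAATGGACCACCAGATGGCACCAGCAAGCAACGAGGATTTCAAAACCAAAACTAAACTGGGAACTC
C1rb: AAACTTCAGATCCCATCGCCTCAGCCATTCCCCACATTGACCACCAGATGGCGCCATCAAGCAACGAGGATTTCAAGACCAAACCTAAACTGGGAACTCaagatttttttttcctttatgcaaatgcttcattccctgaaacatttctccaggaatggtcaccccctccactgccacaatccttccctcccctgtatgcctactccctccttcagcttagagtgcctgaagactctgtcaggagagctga
The shared stretch was the last 99 bases of the C1ra window (positions 152 to 250) and the first 99 of the C1rb window, and 93 of the 99 (93.9%) were identical. Run on into the 50 bases after the C1ra start, which are not shown, the alignment had 150 columns, of which 139 (92.7%) were identical, 9 were mismatches and 2 were gaps. The study's C1ra primers for PCR are shown because 1 of them lies beside the C1rb start.
Forward primer: caggagagctgaggaccca
Reverse primer: ctgagggaggtaaatggagcc
The forward primer, of 19 bases, was found on the C1rb side and not in the C1ra window or the 50 bases after it, beginning 12 bases before the annotated C1rb start. The reverse primer, of 21 bases, was in neither window. In the alignment the C1ra start matches a stretch well before the C1rb start. The place in C1ra that would match the forward primer site thus lies beyond the bases searched. The rest of both genes was not searched, so this does not show which transcript the primers amplify.

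Of the 10 genes, 7 had an upstream window in the RefSeq table. The C3 window, chr17:57228137-57228386 (-), is shown because C3 rose with LPS in every genotype. Capitals mark every match on either strand to the κB letters, GGG and CC with any 5 bases between them, or the C/EBP letters TTGCNNAA, with overlapping matches run together.
C3: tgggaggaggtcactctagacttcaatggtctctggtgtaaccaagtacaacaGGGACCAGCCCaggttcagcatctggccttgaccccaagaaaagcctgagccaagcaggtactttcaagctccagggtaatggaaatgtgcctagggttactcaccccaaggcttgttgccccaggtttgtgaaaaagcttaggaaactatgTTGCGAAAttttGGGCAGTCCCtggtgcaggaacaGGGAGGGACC
This window held 5 κB matches, some of them overlapping or the same bases read on both strands, and 1 C/EBP match, TTGCGAAA, 45 to 38 bases before the start. The κB letters occurred in 5 of the 7 member windows and in 45.4% of 27025 windows of all genes, and the C/EBP letters in 1 of 7 and in 9.55%. The 5 were C3, C1qb, C1qc, Cfp and C3ar1, of which only C3 was called higher after LPS. The C1ra window held neither the κB nor the C/EBP letters, nor the ISRE letters, GAAA repeated with any 2 bases between (3.04% of all windows), nor the GAS letters TTCNNNGAA (7.18%). The ISRE and GAS letters were in 0 of the 7. The C1rb window shown above held κB (GGTCACCCCC), C/EBP (TTATGCAA) and GAS (TTCCCTGAA) letters. Such matches describe the letters of the window and are not shown to be binding sites.

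LPS raised C1ra, C3 and Cfb in all 3 genotypes, lowered C3ar1 in MK2-/- and MK2/3-/- cells, and raised Serping1 by its higher-mean probe in MK2/3-/- cells. The C1q genes, Cfp and C5ar1 did not pass the test in any genotype. In wt cells 3 of the 10 genes were higher after LPS and 0 lower, where 42.1% of all tested probes were called, 18.4% higher and 23.8% lower. In MK2-/- cells 3 were higher and 1 lower (45.5% of all probes called, 17.7% higher and 27.9% lower), and in MK2/3-/- cells 4 were higher and 1 lower (48.7%, 20.2% and 28.6%). The median log2 difference over the 10 genes was -0.20, 0.04 and -0.08 in these genotypes, against -0.07, -0.04 and -0.02 over all tested probes. A gene was represented here by its probe with the highest mean, and called at an adjusted p below 0.05 in limma with Benjamini-Hochberg adjustment over the 28033 probes. Medium and LPS arrays did not overlap for 4, 5 and 5 of the 10 genes in wt, MK2-/- and MK2/3-/- cells. Over all 28033 probes this held for 13767, 11844 and 14193. Every separation of medium and LPS arrays described below is to be read against these counts. Scaling each array to its 75th percentile moved the median of all probes up by 0.33, 0.29 and 0.28 in these comparisons, and the higher share of calls went from 43.6% to 59.6% in wt, from 38.8% to 52.6% in MK2-/- and from 41.4% to 53.3% in MK2/3-/-. In such cultures, fewer cells of a type and less RNA per cell cannot be told apart.

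**Figure D1:**
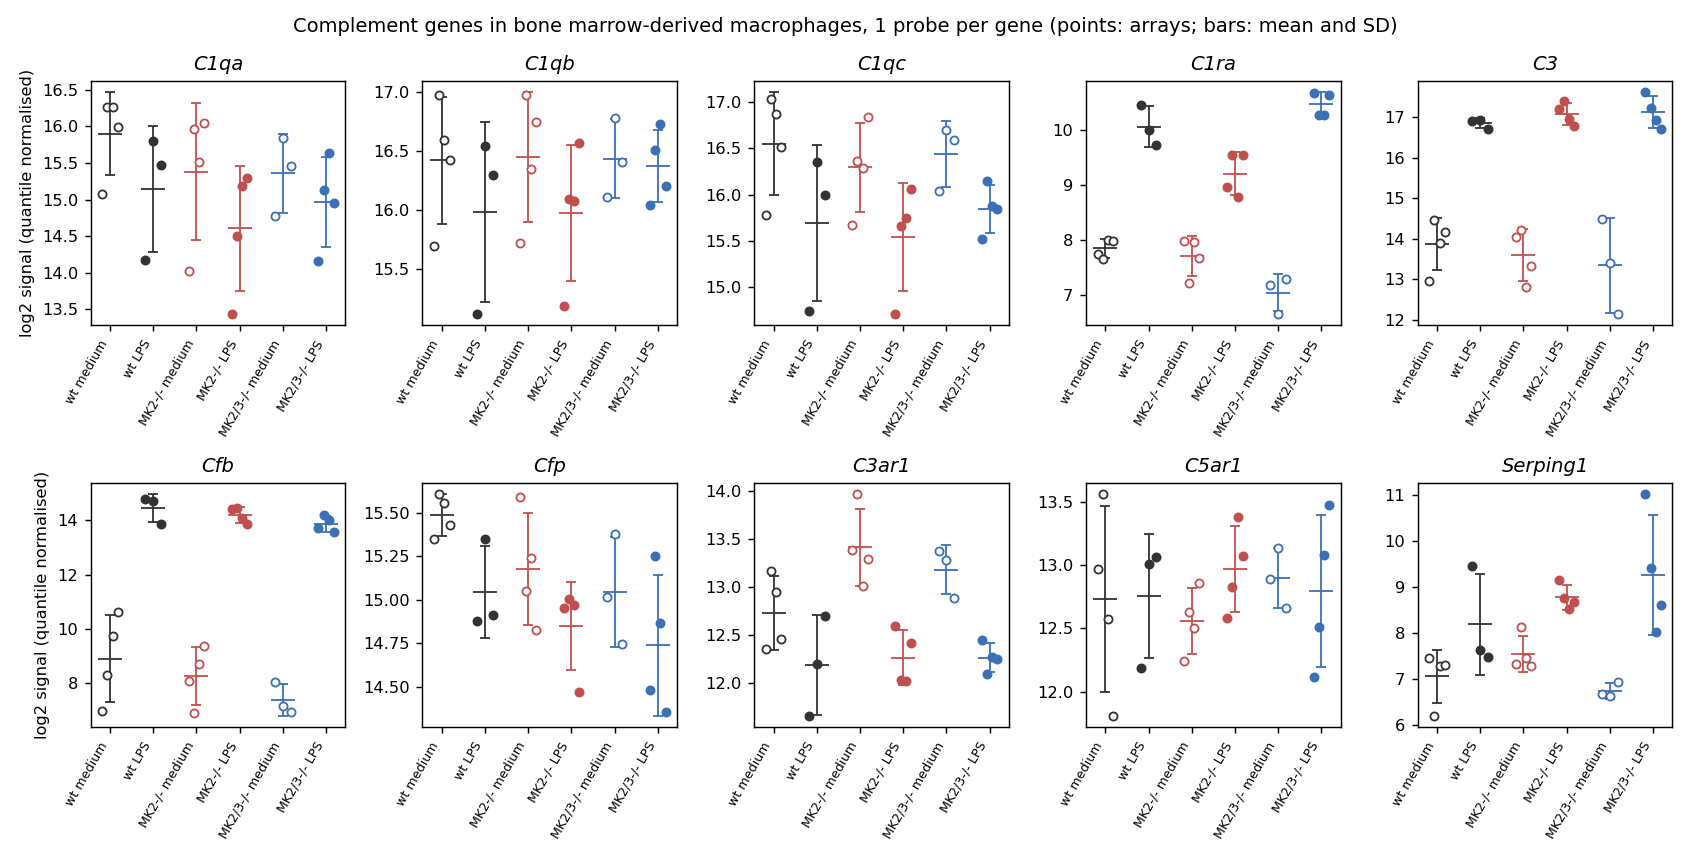
Log2 signal of each complement gene (1 panel per gene, the probe with the highest mean, each on its own axis) in the 6 groups, with 1 point per array (open for medium, filled for LPS) and bars for the mean and SD. Cfb, C3 and C1ra lie higher in the LPS groups of each genotype without overlap, while medium and LPS arrays of C1qa, C1qb, C1qc, Cfp and C5ar1 overlap.

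C1ra, the protease that cleaves C1s once C1q has bound, was higher after LPS in every genotype and by both probes, and its mean LPS level was lowest in MK2-/-. The wt and MK2/3-/- LPS levels did not differ beyond their spread. By the first probe (A_55_P2015363), wt medium arrays read 7.75, 7.66, 8.01 and 7.98 and wt LPS arrays 10.45, 10.00 and 9.72. MK2-/- medium arrays read 7.99, 7.22, 7.98 and 7.68 and MK2-/- LPS arrays 8.97, 9.53, 8.77 and 9.55. MK2/3-/- medium arrays read 7.19, 6.66 and 7.29 and MK2/3-/- LPS arrays 10.67, 10.27, 10.26 and 10.63. LPS and medium arrays did not overlap in any genotype, and all 4 MK2-/- LPS arrays lay below all wt LPS and all MK2/3-/- LPS arrays. Such separation of genotypes under LPS was common over all 28033 probes. It held for 7731 between MK2-/- and wt and for 4012 between MK2/3-/- and MK2-/-, in either direction. The rise was 4.62-fold in wt (2.21 ± 0.25 SE on the log2 scale, limma adjusted p = 8.62e-07), 2.81-fold in MK2-/- cells (1.49 ± 0.23, adjusted p = 2.17e-05; 1.72 without the arrays that lacked Y-linked signal) and 10.6-fold in MK2/3-/- cells (3.41 ± 0.25, adjusted p = 1.94e-09).

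The second C1ra probe (A_51_P384318) also read higher after LPS in every genotype. Its wt medium arrays read 8.06, 7.74, 8.37 and 8.22 and its wt LPS arrays 10.05, 10.19 and 9.67. MK2-/- medium arrays read 8.04, 5.41, 7.98 and 7.82 and MK2-/- LPS arrays 9.39, 9.60, 8.86 and 9.59. MK2/3-/- medium arrays read 7.04, 6.81 and 7.45 and MK2/3-/- LPS arrays 10.71, 10.43, 9.50 and 10.95. MK2-/- medium replicate 2 stood apart from its group, with the nearest array at 7.82, and MK2/3-/- LPS replicate 3 fell within the range of MK2-/- LPS. The rises were 1.87 (adjusted p = 0.00400), 2.04 (adjusted p = 0.000808) and 3.30 (adjusted p = 1.19e-05) in wt, MK2-/- and MK2/3-/- cells, so wt and MK2-/- changed places between the probes. Without MK2-/- medium replicate 2 the MK2-/- rise by this probe was 1.41, and without the arrays that lacked Y-linked signal it was 2.43 (adjusted p = 0.000905).

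Subtracting the second probe from the first on each array tests whether they responded unequally. The mean difference was 0.09 in wt LPS, -0.25 in wt medium, -0.15 in MK2-/- LPS, 0.40 in MK2-/- medium, 0.06 in MK2/3-/- LPS and -0.05 in MK2/3-/- medium, and the MK2-/- medium value rested on replicate 2 alone, at 1.81. In 9 comparisons by the two-sided exact permutation test the smallest unadjusted p was 0.0571 (MK2-/- minus wt in medium, a difference of 0.65 between the probes, adjusted p = 0.386). The smallest p these group sizes allow is 0.0286, so that a single comparison at that value would have an exact adjusted p of 0.257, and 6 of the 9 would have to reach it to pass. With so little room the tests could hardly find a difference, and they do not show that the probes read the same transcripts.

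**Figure D2:**
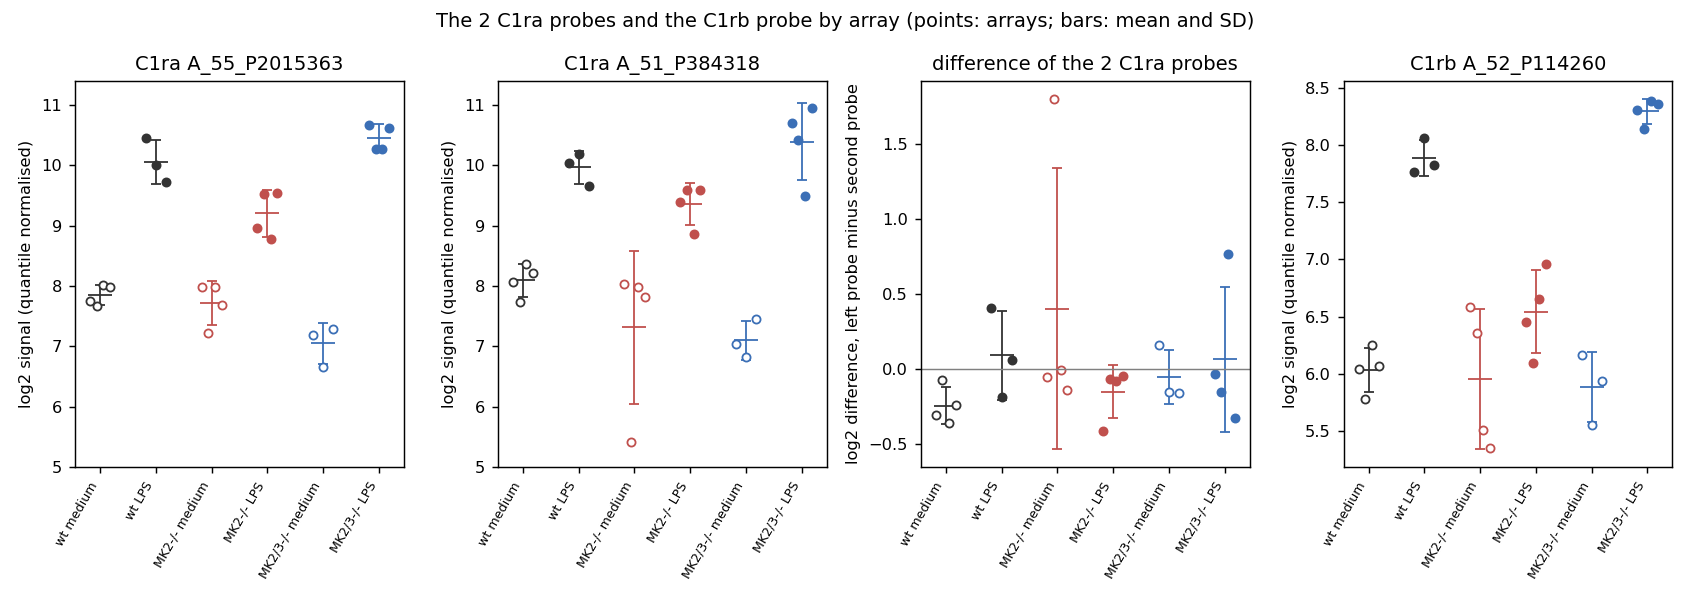
Log2 signal of the 2 C1ra probes, their difference on each array (first minus second) and log2 signal of the C1rb probe in the 6 groups, with 1 point per array and bars for the mean and SD. The MK2-/- LPS arrays lie below those of the other genotypes by the first C1ra probe and the C1rb probe, and MK2-/- medium replicate 2 stands apart by the second C1ra probe at 5.41, which sets its difference to 1.81.

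Under LPS, C1ra was the only one of the 10 genes called between genotypes, and only by its first probe. The counts were 1 of 10 in MK2-/- minus wt and in MK2/3-/- minus MK2-/-, and 0 in MK2/3-/- minus wt. They were not above the shares of all probes called, which follow. By the first probe MK2-/- minus wt was -0.85 ± 0.25 on the log2 scale (adjusted p = 0.0335), where 11.6% of all probes were called. The level in MK2/3-/- was 2.39-fold that in MK2-/- cells (1.25 ± 0.23, adjusted p = 0.00124), where 13.4% were called. MK2/3-/- minus wt was 0.40 (adjusted p = 0.248), with 23.8% of probes called. By the second probe the same differences were -0.61 (adjusted p = 0.418), 1.04 (adjusted p = 0.132, 95% interval 0.11 to 1.97) and 0.43 (adjusted p = 0.551), and none passed, although the second of them did without MK2-/- medium replicate 2 (1.04, adjusted p = 0.0146). The MK2-/- deficit against wt was lost without wt LPS replicate 1 (-0.66, adjusted p = 0.143), wt LPS replicate 2 (-0.88, 0.0672), MK2-/- LPS replicate 1 (-0.77, 0.0841) or MK2-/- LPS replicate 3 (-0.71, 0.0739), without both arrays that lacked Y-linked signal (-0.71, 0.0795), and without the array of each group with the highest mean of the fibroblast or stroma markers (-0.77, 0.146). The MK2/3-/- excess over MK2-/- was called without any single array (1.11 to 1.37, adjusted p from 0.000683 to 0.00639) and without those 2 arrays (1.11, 0.00516). By the range of their mean log2 level, markers of B cells, dendritic cells and mast cells were in the same order as C1ra. Those of macrophages, T cells, neutrophils and fibroblasts or stroma were not. T cell means were 6.108 to 7.906 in MK2-/- LPS, 6.155 to 6.397 in wt LPS and 6.215 to 7.377 in MK2/3-/- LPS. In the same groups neutrophil means were 6.86 to 7.84, 6.94 to 7.58 and 6.66 to 8.59. Fibroblast or stroma means were 7.56 to 8.70, 8.58 to 9.29 and 7.02 to 9.05, and macrophage means 14.42 to 14.79, 14.33 to 14.74 and 14.62 to 14.84. The mean level of 5 B cell markers was 5.19 to 5.56 in MK2-/- LPS, below the 5.68 to 6.27 in wt LPS and the 5.96 to 6.38 in MK2/3-/- LPS without overlap. Dendritic cell markers, 4 in number, had means of 8.53 to 8.80 in MK2-/- LPS, 8.78 to 9.09 in wt LPS and 9.65 to 10.19 in MK2/3-/- LPS, and 3 mast cell markers had 5.97 to 6.27, 6.16 to 7.44 and 7.09 to 7.96, so for these lists MK2-/- and wt overlapped. By summed signal before normalisation, B cell and mast cell markers in MK2-/- LPS lay within the range of wt LPS. Dendritic cell markers by that sum had 50940 to 71250 in MK2/3-/- LPS and 57260 to 105300 in wt LPS. The part of these cell types in the C1ra result was not tested.

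The LPS response of C1ra, LPS minus medium, was itself compared between genotypes. By the first probe it was larger in MK2/3-/- than in MK2-/- by 1.92 ± 0.34 on the log2 scale (95% interval 1.22 to 2.62, adjusted p = 0.0381), in a comparison where 0.0678% of all probes, 19 in number, were called. Against wt the response differed by 1.20 in MK2/3-/- cells (adjusted p = 0.109, with 0.985% of probes called) and by -0.72 in MK2-/- cells (adjusted p = 0.638, with 0% called by limma and 2165 probes at an unadjusted p below 0.05). By the second probe the MK2/3-/- response exceeded the MK2-/- response by 1.25 (95% interval -0.12 to 2.62, adjusted p = 0.616). The called difference kept its direction without each of the 22 arrays in turn, at 1.73 to 2.09, but its adjusted p passed 0.05 in 16 of these 22 fits, up to 0.144 without MK2/3-/- medium replicate 2. The arrays whose removal ended the call were wt medium replicates 2 to 4, MK2-/- LPS replicates 1 to 3, MK2-/- medium replicates 1, 3 and 4, and all 4 MK2/3-/- LPS and all 3 MK2/3-/- medium replicates. Without the 2 arrays that lacked Y-linked signal it was 1.69 (adjusted p = 0.0702), and without the array of each group highest in fibroblast or stroma markers it was 2.11 (0.0939).

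**Figure D3:**
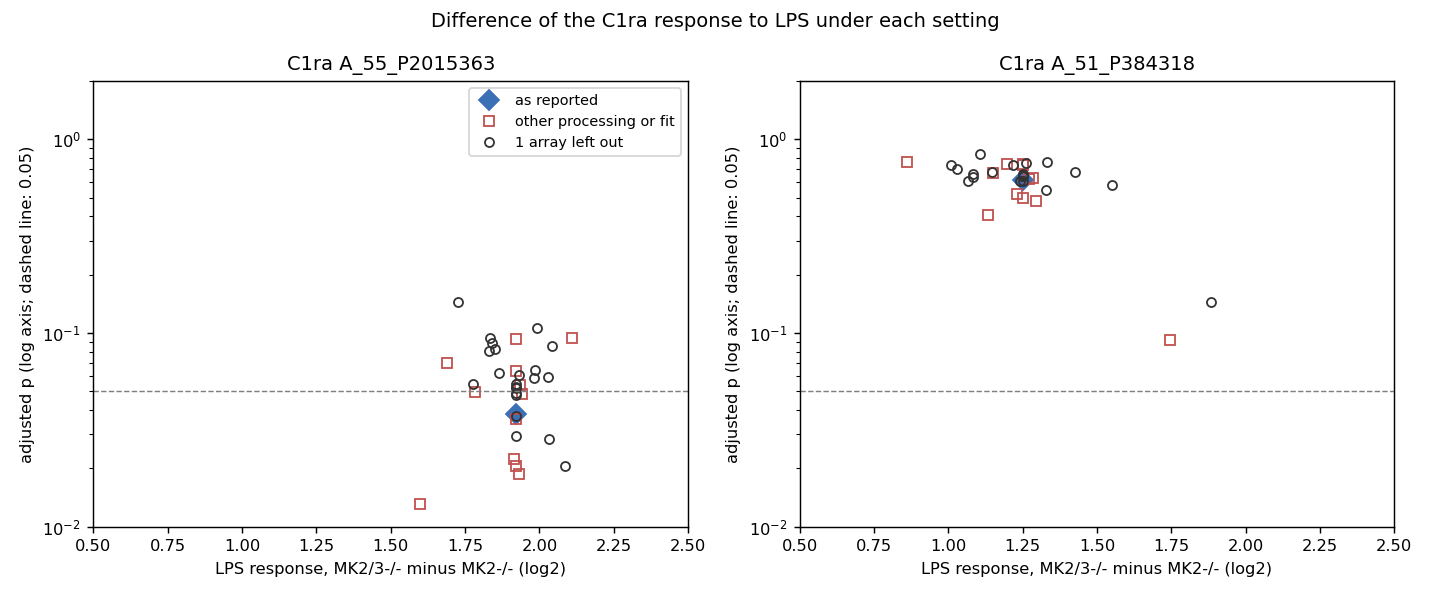
Adjusted p (log axis, dashed line at 0.05) against the size of the difference between the MK2/3-/- and MK2-/- LPS responses (log2) for both C1ra probes, with a diamond for the reported fit, squares for the other settings and circles for fits without 1 array. The first probe stays between 1.60 and 2.11 with points on both sides of the line, and all points of the second probe lie above the line.

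In medium the mean level of C1ra was highest in wt (7.85 ± 0.17 SD, n = 4), followed by MK2-/- (7.72 ± 0.36, n = 4) and MK2/3-/- (7.05 ± 0.34, n = 3) by the first probe, but no difference passed the test. MK2/3-/- minus wt was -0.80 (adjusted p = 0.0955), although the 3 MK2/3-/- arrays lay below all wt arrays. Of all 28033 probes, 6825 had no overlap between MK2/3-/- and wt medium arrays. Where medium arrays were compared, 7.95% of all probes were called for MK2-/- minus wt, 1.95% for MK2/3-/- minus wt and 2.72% for MK2/3-/- minus MK2-/-, and 0 of the 10 genes in each by limma. By the methods' two-sample test 1, 2 and 1 of the 10 genes reached an unadjusted p below 0.05 in these comparisons, where 24.6%, 22.7% and 15.7% of all probes did, so the members were not above that background.

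C1rb, the near copy of C1ra that shares the upstream stretch shown above and lies beyond C1s1, had the same order of LPS levels. Its probe (A_52_P114260) read 7.76, 8.06 and 7.83 on wt LPS arrays, 6.45, 6.10, 6.66 and 6.96 on MK2-/- LPS arrays, and 8.31, 8.14, 8.38 and 8.35 on MK2/3-/- LPS arrays. Every MK2-/- LPS array lay below every LPS array of the other genotypes. Of all 28033 probes, 7731 also had no overlap between MK2-/- and wt LPS arrays. Between MK2/3-/- and MK2-/- LPS arrays, 4012 probes had none. LPS raised C1rb by 1.85 in wt (adjusted p = 1.63e-05) and by 2.41 in MK2/3-/- cells (adjusted p = 3.85e-07), and the MK2-/- difference was 0.59 (adjusted p = 0.0583). Among LPS arrays, MK2-/- minus wt was -1.34 (adjusted p = 0.00521) and MK2/3-/- minus MK2-/- was 1.75 (adjusted p = 0.000131), and without the arrays that lacked Y-linked signal these were -1.38 (0.00828) and 1.79 (0.000284). Whether the C1ra and C1rb probes bind each other's transcript was not tested, since the probe sequences were not used here.

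The genes whose profile over the 22 arrays was most like that of the first C1ra probe were Ddx19a (Pearson r = 0.972), Carhsp1 (0.960), Phf11c (0.956), Aldh1b1 (0.955) and 1600014C10Rik (0.953). These coefficients are a description over arrays that share groups, slides and the LPS response.

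The recognition subunits of C1, well above background on all 22 arrays, did not pass the test for LPS in any genotype, although C1qc did in all 3 once the age of the animals was a covariate. C1qa arrays ranged from 15.08 to 16.27 in wt medium and from 14.17 to 15.79 in wt LPS, C1qb from 15.69 to 16.98 and from 15.11 to 16.55, and C1qc from 15.78 to 17.03 and from 14.74 to 16.35. Medium and LPS arrays overlapped for all of the 3 genes in all 3 genotypes, and replicate 1 was the lowest array for each of the 3 genes in all 6 groups. LPS minus medium in wt was -0.76 for C1qa (95% interval -1.89 to 0.38, adjusted p = 0.283), -0.44 for C1qb (-1.25 to 0.38, adjusted p = 0.401) and -0.85 for C1qc (-1.67 to -0.04, adjusted p = 0.0878). The MK2-/- values were -0.78, -0.47 and -0.75 (-0.93, -0.54 and -0.82 without the arrays that lacked Y-linked signal), and the MK2/3-/- values -0.39, -0.06 and -0.59. With age as a covariate C1qc gave -0.79 in wt (adjusted p = 0.0412), -0.75 in MK2-/- cells (0.0353) and -0.80 in MK2/3-/- cells (0.0378), C1qa passed in MK2-/- cells (-0.78, 0.0498), and C1qb passed in none. The wt values rested on single arrays in both directions. Without wt LPS replicate 1 they were -0.27 for C1qa, 0.0015 for C1qb and -0.38 for C1qc. C1qc passed in wt without wt LPS replicate 2 (-1.18, adjusted p = 0.0386) or without wt medium replicate 1 (-1.11, 0.0325), and C1qa in MK2-/- without MK2-/- medium replicate 1 (-1.23, 0.0462). Under 75th percentile scaling the wt values became 0.06, 0.38 and -0.04, against a median of all probes of 0.27. C1qb, C1qc and C1qa are neighbouring genes.

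C3 and Cfb, the substrate and the protease of the alternative C3 convertase, rose in every genotype. C3 read 12.96, 14.45, 13.89 and 14.16 on wt medium arrays and 16.91, 16.92 and 16.71 on wt LPS arrays by its probe A_51_P110301. MK2-/- arrays read 14.03, 14.21, 12.81 and 13.31 in medium and 17.19, 17.40, 16.94 and 16.77 in LPS, and MK2/3-/- arrays 14.49, 13.40 and 12.14 in medium and 17.61, 17.23, 16.92 and 16.70 in LPS. The lowest LPS array, 16.70, lay above the highest medium array, 14.49, over all genotypes. C3 rose 7.91-fold in wt (2.98 ± 0.45 SE, adjusted p = 2.51e-05), 11.2-fold in MK2-/- cells (3.48 ± 0.41, adjusted p = 9.66e-07; 3.27 without the MK2-/- arrays that lacked Y-linked signal) and 13.7-fold in MK2/3-/- cells (3.78 ± 0.45, adjusted p = 9.12e-07; 9.03-fold without MK2/3-/- medium replicate 3). The other C3 probe, A_55_P2038525, gave 2.94, 3.38 and 3.70 (3.15 in MK2-/- cells without the arrays that lacked Y-linked signal).

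Cfb read 6.97, 8.31, 9.74 and 10.62 on wt medium arrays and 14.80, 14.71 and 13.87 on wt LPS arrays. MK2-/- arrays read 8.07, 6.90, 8.71 and 9.38 in medium and 14.43, 14.44, 14.07 and 13.86 in LPS, and MK2/3-/- arrays 8.05, 7.18 and 6.94 in medium and 13.70, 14.21, 14.00 and 13.56 in LPS. Medium and LPS arrays did not overlap in any genotype, and the wt medium arrays had an SD of 1.60 against 0.51 for wt LPS. The rise was 46.8-fold in wt (5.55 ± 0.64, adjusted p = 1.29e-06), 61.3-fold in MK2-/- cells (5.94 ± 0.59, adjusted p = 1.06e-07; 6.13 without the arrays that lacked Y-linked signal) and 89.2-fold in MK2/3-/- cells (6.48 ± 0.64, adjusted p = 9.91e-08). The wt rise was 29.9-fold without wt medium replicate 1 and 69.6-fold without wt medium replicate 4. The LPS response of C3 and Cfb was not called different between any pair of genotypes.

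Cfp, which encodes properdin, was well above background on all arrays, with group means from 14.74 in MK2/3-/- LPS to 15.49 in wt medium. LPS minus medium was -0.44 in wt (95% interval -0.93 to 0.05, adjusted p = 0.141), -0.33 in MK2-/- cells (adjusted p = 0.235; -0.35 without the arrays that lacked Y-linked signal) and -0.31 in MK2/3-/- cells (adjusted p = 0.300). Medium and LPS arrays overlapped in each genotype. Under 75th percentile scaling the values turned positive, at 0.43, 0.53 and 0.63, of which the MK2/3-/- value passed (adjusted p = 0.0434), against shifts of the median of all probes to 0.27, 0.26 and 0.26.

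**Figure D4:**
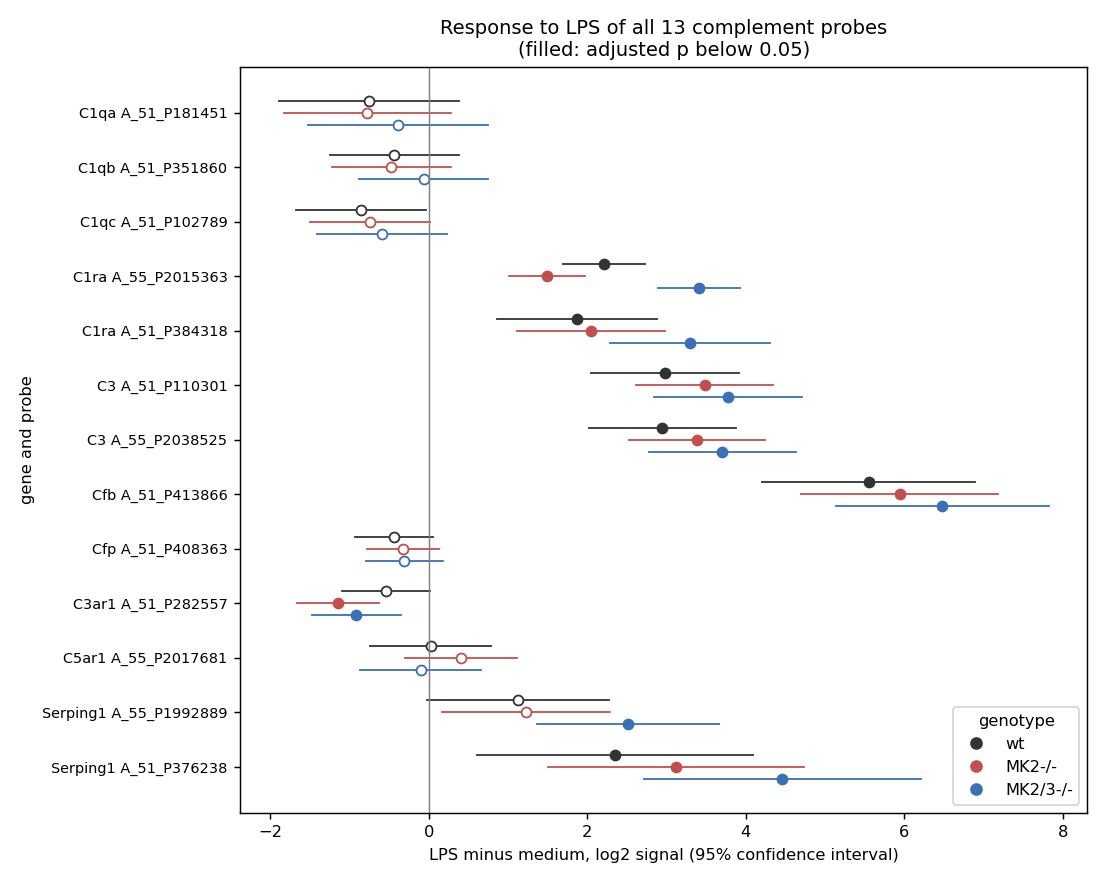
LPS minus medium (log2) for each of the 13 probes in the 3 genotypes, with 95% intervals as bars and 0 as a line. Cfb, C3 and both C1ra probes lie to the right of 0 in each genotype, C3ar1 lies to the left in MK2-/- and MK2/3-/-, and the intervals of C1qa, C1qb, Cfp and C5ar1 cross 0.

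Of the receptors for C3a and C5a, C3ar1 fell in both mutants and C5ar1 passed in no genotype. C3ar1 read 12.35, 13.16, 12.94 and 12.46 on wt medium arrays and 11.66, 12.20 and 12.70 on wt LPS arrays, which overlapped. MK2-/- arrays read 13.38, 13.97, 13.01 and 13.29 in medium and 12.59, 12.03, 12.02 and 12.41 in LPS, and MK2/3-/- arrays 13.37, 13.28 and 12.89 in medium and 12.45, 12.09, 12.26 and 12.25 in LPS, without overlap. C3ar1 fell by 1.15 on the log2 scale in MK2-/- cells (SE 0.25, adjusted p = 0.000715; -1.20 without the arrays that lacked Y-linked signal) and by 0.91 in MK2/3-/- cells (SE 0.27, adjusted p = 0.00767). The wt difference was -0.54 (95% interval -1.10 to 0.02, adjusted p = 0.112), and it passed without wt LPS replicate 3 (-0.80, adjusted p = 0.0353). In the test of the difference itself, the LPS response of C3ar1 was not called between any pair of genotypes. Under 75th percentile scaling the MK2/3-/- value was -0.49 (adjusted p = 0.138), or -0.74 relative to the median of all probes.

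C5ar1 group means lay between 12.56 (MK2-/- medium) and 12.97 (MK2-/- LPS), and medium and LPS arrays overlapped in every genotype. LPS minus medium was 0.03 in wt (95% interval -0.74 to 0.79, adjusted p = 0.965), 0.41 in MK2-/- cells (-0.30 to 1.12, adjusted p = 0.351; 0.25 without the arrays that lacked Y-linked signal) and -0.10 in MK2/3-/- cells (-0.86 to 0.66, adjusted p = 0.845). Its genomic neighbour C5ar2, which encodes the other C5a receptor, fell in all 3 genotypes, as given below.

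Serping1, which encodes the inhibitor of C1r and C1s, rose after LPS with a wide spread between arrays. By its probe with the higher mean (A_55_P1992889) wt arrays read 7.46, 6.21, 7.30 and 7.31 in medium and 9.46, 7.65 and 7.49 in LPS. MK2-/- arrays read 7.34, 8.13, 7.47 and 7.28 in medium and 9.16, 8.77, 8.52 and 8.68 in LPS, and MK2/3-/- arrays 6.68, 6.63 and 6.95 in medium and 11.03, 9.41, 8.04 and 8.61 in LPS. LPS and medium arrays did not overlap in any genotype. The difference was called in MK2/3-/- cells (2.51 ± 0.55, adjusted p = 0.000775) and was 1.13 in wt (adjusted p = 0.107) and 1.23 in MK2-/- cells (adjusted p = 0.0555; 1.29 without the arrays that lacked Y-linked signal). In MK2/3-/- cells it was 1.93 without MK2/3-/- LPS replicate 1 (adjusted p = 0.00186), and in wt it was 0.50 without wt LPS replicate 1. By the methods' two-sample test after adjustment the MK2/3-/- difference did not pass (adjusted p = 0.0557), whereas the MK2-/- difference did (0.00874). The MK2-/- difference passed without wt LPS replicate 1 (adjusted p = 0.0325), MK2-/- medium replicate 2 (0.0421), MK2/3-/- LPS replicate 1 (0.0155) or MK2/3-/- LPS replicate 3 (0.0366), and the wt difference without MK2/3-/- LPS replicate 1 (0.0396).

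The other Serping1 probe (A_51_P376238) was called in all 3 genotypes but lay near background in medium. In wt medium 2 of 4 arrays were well above background, in MK2-/- medium 0 of 4 and in MK2/3-/- medium 1 of 3, while all LPS arrays were. MK2-/- LPS arrays read 7.52, 6.96, 5.88 and 6.63, and with no MK2-/- medium array well above background the rise in MK2-/- was at least 5.01-fold (adjusted p = 0.00243, or 0.00816 without the arrays that lacked Y-linked signal). That bound compares the LPS mean with the mean, per medium array, of the probe's own signal or, where larger, the dimmest signal that still counted as well above background. MK2/3-/- LPS arrays read 10.16, 7.92, 6.86 and 7.62 and MK2/3-/- medium arrays 2.75, 3.24 and 5.05, a log2 difference of 4.46 (adjusted p = 0.000179) that rested on signals mostly not above background. It was 3.79 without MK2/3-/- LPS replicate 1 and 5.14 without MK2/3-/- medium replicate 3. With normexp background correction the differences by this probe were 1.02 (adjusted p = 0.0877), 1.13 (0.0380) and 2.08 (0.000887) in wt, MK2-/- and MK2/3-/- cells. In wt the difference was 2.35 (adjusted p = 0.0292), and the call was lost without wt LPS replicate 1 (1.61, adjusted p = 0.163), wt medium replicate 2 (1.89, 0.0924) or wt medium replicate 3 (1.98, 0.0863).

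The fibroblast or stroma markers moved with these arrays in part. Their mean level ranged from 8.58 to 9.29 in wt LPS and from 6.30 to 9.57 in wt medium, from 7.56 to 8.70 and from 5.57 to 8.14 in MK2-/- LPS and medium, and from 7.02 to 9.05 and from 5.46 to 8.59 in MK2/3-/- LPS and medium. The array with the highest Serping1 in wt LPS, replicate 1, had the highest fibroblast mean of its group (9.29), whereas the array with the highest Serping1 in MK2/3-/- LPS, replicate 1, had the lowest (7.02). Without the array of each group with the highest fibroblast mean, Serping1 by the higher-mean probe rose by 2.83 in MK2/3-/- cells (adjusted p = 0.00304), C3 in wt by 2.65 (adjusted p = 0.000320) and Cfb in wt by 4.73 (adjusted p = 7.64e-05), whereas the wt call of the other Serping1 probe was lost (2.19, adjusted p = 0.0559), as were the C1ra calls of MK2-/- minus wt under LPS and of the LPS response given above.

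The 10 genes were set among 58 genes of the complement system listed by role, of which 57 were on the array and 49 were tested. In wt cells LPS raised 9 of the 49 and lowered 4, in MK2-/- cells 10 and 8, and in MK2/3-/- cells 11 and 7. Over all probes the higher shares were 18.4%, 17.7% and 20.2% and the lower shares 23.8%, 27.9% and 28.6%, as above, and the counts by role are to be read against these. Of 10 classical pathway genes, 5 rose and 0 fell in each genotype, and of 6 lectin pathway genes none was called in any. C3 and Cfb were the 2 of 4 genes of the C3 and alternative pathway group that rose in each genotype. Of 7 terminal pathway genes only C8g was called, higher in MK2/3-/- cells (0.75, adjusted p = 0.0114). Of 12 receptor genes, 0 rose in any genotype and 4, 7 and 6 fell in wt, MK2-/- and MK2/3-/- cells. Of 10 regulators, 2, 3 and 3 rose and 0, 1 and 1 fell. Without the 10 genes described above, 39 tested genes remained, with 6 higher and 4 lower in wt, 7 and 7 in MK2-/- and 7 and 6 in MK2/3-/-.

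**Figure D5:**
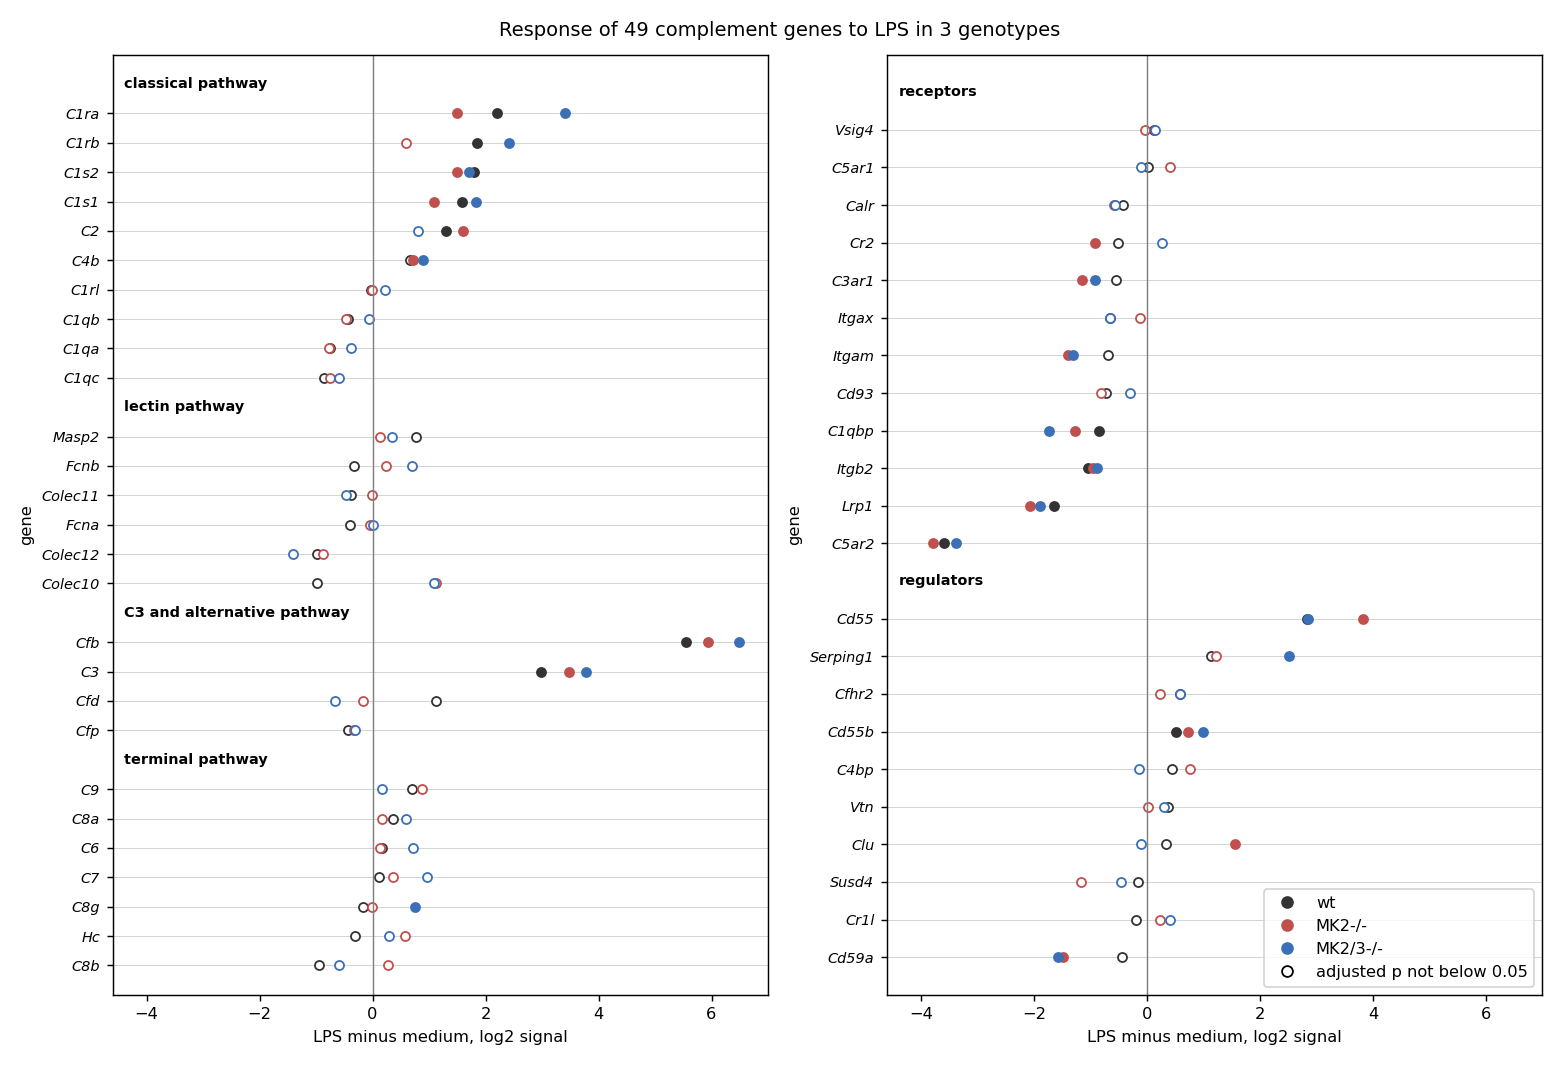
LPS minus medium (log2) in the 3 genotypes for the 49 tested genes of the complement system, grouped by role, with filled symbols for an adjusted p below 0.05. Called receptor genes all lie below 0, with C5ar2 lowest, and called classical pathway genes all lie above 0.

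Among classical pathway genes outside the 10, C2, which supplies the protease of the classical convertase and neighbours Cfb, rose by 1.31 in wt (adjusted p = 0.00814) and 1.60 in MK2-/- cells (adjusted p = 0.000705), and its MK2/3-/- value was 0.80 (adjusted p = 0.0825). The C2 call in wt was lost without wt LPS replicate 1 (1.00, adjusted p = 0.0555). C1s1, a gene for the protease that C1r activates, rose by 1.59 in wt (adjusted p = 0.00780) and 1.09 in MK2-/- cells (adjusted p = 0.0389). The wt call was lost without wt LPS replicate 1 (1.04, 0.0690), and the MK2-/- call without MK2-/- LPS replicate 1, 3 or 4 or any 1 MK2-/- medium array (adjusted p from 0.0535 to 0.113). In MK2/3-/- no medium array was well above background for C1s1 and the rise was at least 2.55-fold (adjusted p = 0.00212). C1s2, its near copy, was dim, with 2 of 4 wt medium arrays and 0 of the medium arrays of the other genotypes well above background. It rose by 1.80 in wt (adjusted p = 0.0243) and at least 1.46-fold in MK2/3-/- cells (adjusted p = 0.0277), where 2 of 4 LPS arrays were above background. The wt call was lost without wt LPS replicate 1 (adjusted p = 0.127) or wt medium replicate 3 (1.15, 0.0885), and the MK2/3-/- call without MK2/3-/- LPS replicate 2 or 4 or MK2/3-/- medium replicate 1 or 2 (0.0626 to 0.120). No fold is given for MK2-/-, where 1 of 4 LPS arrays was. With normexp background correction C1s1 in wt gave 0.50 (adjusted p = 0.0205) and C1s2 in wt 0.53 (0.00877).

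C5ar2 fell from 11.32 ± 0.35 (SD, n = 4) to 7.72 ± 0.10 (n = 3) in wt, from 11.17 ± 0.18 (n = 4) to 7.39 ± 0.26 (n = 4) in MK2-/- and from 10.83 ± 0.23 (n = 3) to 7.46 ± 0.88 (n = 4) in MK2/3-/-, with no overlap in any genotype. These are log2 differences of -3.60 (adjusted p = 6.83e-08), -3.79 (6.44e-09) and -3.38 (8.01e-08). Lrp1, an endocytic receptor that also takes up C1q-tagged cells, fell by 1.64, 2.07 and 1.89 on the log2 scale, and Itgb2, the shared chain of the C3 fragment receptors CR3 and CR4, fell by 1.05, 0.96 and 0.88. Under 75th percentile scaling Itgb2 passed in no genotype, at -0.26 (adjusted p = 0.440), -0.12 (0.711) and 0.0136 (0.972), and Lrp1 did not pass in wt (-1.12, 0.0624). C1qbp, a C1q-binding protein mostly found in mitochondria, fell by 1.27 and 1.73 in MK2-/- and MK2/3-/- cells. In wt C1qbp gave -0.84 (adjusted p = 0.0489), a call lost in 14 of the 22 fits without 1 array (adjusted p up to 0.161) and under 75th percentile scaling (-0.27, 0.569). It held without wt medium replicate 2, MK2-/- LPS replicate 2 or 3, MK2-/- medium replicate 1 or any 1 MK2/3-/- LPS array. Among regulators, Cd55, which takes convertases apart on the cell surface, rose by 2.83 (adjusted p = 0.00614), 3.82 (adjusted p = 0.000192) and 2.86 (adjusted p = 0.00450). Cd55 was well above background on only 2 of 4, 1 of 4 and 1 of 3 medium arrays, and with normexp background correction the differences were 1.21, 1.60 and 0.87. By the methods' test after adjustment the MK2/3-/- difference of Cd55 did not pass (0.0598). Cd55b, its near copy, rose by 0.51, 0.72 and 0.99, and its wt call was lost without wt LPS replicate 2 or 3 or wt medium replicate 1, 2 or 3 (adjusted p from 0.0512 to 0.132).

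Between genotypes under LPS, 5 of the 49 genes were higher and 5 lower in MK2-/- than in wt, 5 higher and 3 lower in MK2/3-/- than in wt, and 5 higher and 0 lower in MK2/3-/- than in MK2-/-. Over all probes 4.18% were higher and 7.45% lower in the first of these, 8.87% and 14.9% in the next, and 7.42% and 6.01% in the last. In medium the counts were 2 and 5, 1 and 1, and 3 and 0, where 4.85% and 3.09%, 1.29% and 0.66%, and 1.82% and 0.899% of all probes were called. For the LPS response, C1ra in MK2/3-/- against MK2-/- was the single call. Cr2, the receptor for C3d best known on B cells, was lower in MK2-/- than in wt under LPS (-1.68, adjusted p = 0.00317) while MK2/3-/- exceeded wt by 1.23 (adjusted p = 0.00696) and MK2-/- by 2.92 (adjusted p = 3.62e-06). C6, a component of the membrane attack complex, gave -1.92 (adjusted p = 0.00556) and 2.80 (adjusted p = 5.38e-05) for the first and the last of these, with 1 of 4 MK2-/- LPS arrays well above background. For both genes the MK2-/- and MK2/3-/- differences were also called in medium, at -1.27 and 1.74 for Cr2 and at -1.88 and 2.22 for C6. B cell markers, 5 in number, had mean levels from 5.19 to 5.56 in MK2-/- LPS, from 5.68 to 6.27 in wt LPS and from 5.96 to 6.38 in MK2/3-/- LPS, and 2 of the 5 were well above background on all arrays. Their part in the Cr2 result was not tested.

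Hc, which encodes C5, was higher than in wt under LPS in MK2-/- cells (1.87, adjusted p = 0.00602, with 1 spot missing) and in MK2/3-/- cells (1.81, adjusted p = 0.00157). Vtn, which encodes vitronectin, was higher by 1.28 and 1.16, and was also higher in medium, by 1.62 and 1.23. The last of these calls was lost without wt LPS replicate 3, wt medium replicate 1, 2 or 4, MK2-/- medium replicate 1 or any 1 MK2/3-/- medium array (adjusted p from 0.0511 to 0.214). Cd55b was higher by 0.81 and 0.72. In medium Cd55b was also called higher in MK2-/- than in wt, by 0.51 to 0.67 over the 22 fits without 1 array, of which 15 lost the call. In MK2-/- against wt, C7 was higher by 1.55 (adjusted p = 0.0362), and Fcnb, a ficolin of the lectin pathway, was at least 1.84-fold higher (adjusted p = 0.0171), with no wt LPS array well above background. The C7 call was lost without any 1 wt LPS array or MK2-/- LPS replicate 1, 2 or 4 (adjusted p from 0.0603 to 0.118). C1s2 gave -1.95 (adjusted p = 0.0471) with 1 of 4 MK2-/- LPS arrays above background, and the call held in only 7 of 22 fits without 1 array, those without wt medium replicate 1 or 3, MK2-/- medium replicate 2, MK2/3-/- LPS replicate 1, 3 or 4 or MK2/3-/- medium replicate 3 (adjusted p up to 0.186 in the others). In MK2/3-/- against wt, C8g was higher by 0.74 (adjusted p = 0.0275), whereas Fcna (-0.99, adjusted p = 0.0398), Cd59a, which blocks the membrane attack complex (-1.77, adjusted p = 0.0232), and C1qbp (-1.37, adjusted p = 0.00648) were lower. The C8g call was lost without wt LPS replicate 1 or 3 or MK2/3-/- LPS replicate 1 or 3 (adjusted p from 0.0515 to 0.138), the Fcna call without any 1 wt LPS array or MK2/3-/- LPS replicate 2 (0.0706 to 0.124), and the Cd59a call without any 1 wt LPS array (0.0541 to 0.0632). In medium Fcna was also called lower in MK2/3-/- than in wt. That difference ran from -1.60 to -1.16 over the 22 fits without 1 array, of which 12 lost the call. C2 was higher in MK2/3-/- than in MK2-/- by 1.19 (adjusted p = 0.0277), and in medium by 1.99 (adjusted p = 0.00483). The call of C2 under LPS was lost without MK2-/- LPS replicate 2, 3 or 4 or MK2/3-/- LPS replicate 1 (adjusted p from 0.0535 to 0.0806).

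Without the 2 MK2-/- arrays that lacked Y-linked signal, 3 of the differences just given, leaving aside Cd55b and Fcna in medium, were no longer called. They were the LPS rise of C1s1 in MK2-/- cells (0.93, adjusted p = 0.144), C1s2 in MK2-/- minus wt under LPS (-1.67, 0.109) and C2 in MK2/3-/- minus MK2-/- under LPS (1.13, 0.0660). The other MK2-/- values of LPS minus medium became 1.70 for C2, -3.63 for C5ar2, -2.32 for Lrp1, -0.996 for Itgb2, -1.38 for C1qbp, 3.99 for Cd55 and 0.78 for Cd55b. For MK2-/- minus wt under LPS they became -1.68 for Cr2, -2.13 for C6, 1.87 for Hc, 1.33 for Vtn, 0.79 for Cd55b and 1.64 for C7, with Fcnb at an adjusted p of 0.0286, and Vtn in medium became 1.55. MK2/3-/- minus MK2-/- became 2.91 for Cr2 and 3.00 for C6 under LPS, and in medium 2.03 for C2, 1.65 for Cr2 and 2.27 for C6, with MK2-/- minus wt in medium at -1.19 for Cr2 and -1.93 for C6. All of these other values were called.

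For the members other than C1ra, no genotype difference passed the test under LPS, in medium or in the LPS response. The lowest adjusted p among these was 0.0911, for C3ar1 in MK2-/- against wt in medium (0.68). For MK2/3-/- minus wt under LPS the higher-mean Serping1 probe gave 1.07 (adjusted p = 0.163). These p-values do not show that the genotypes have equal levels.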

How the data were processed

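The deposited scanner files held Cy3 intensities of Agilent mouse arrays of 62976 spots, extracted by the authors with Agilent Feature Extraction 11.0.1.1 as background-subtracted processed signals. The authors' series table held log2 values, quantile normalised and centred on the median of all samples per the study's methods, and it was used as an alternative (r from 0.992 to 0.999 with the values used here). For this report log2 processed signals, with marked spots missing, were quantile normalised over the 22 arrays with no pseudocount, and spots of a probe were averaged. Control spots (3671 per array) were left out. Probes with an NCBI accession that were well above background on at least 3 arrays (28033 of 55681 non-control probes) entered a fit of 6 group means over all arrays by limma 3.58.1 (R 4.3.3), with Benjamini-Hochberg adjustment per comparison and calls at an adjusted p below 0.05. RefSeq symbols were found for 27509 of 29150 RefSeq probes. The 12 comparisons were LPS minus medium in each genotype, genotypes under LPS and in medium, and differences of the LPS response. Marked spots numbered 115 to 2927 per array, the highest on MK2-/- LPS replicate 3 with the next at 261, no spot was saturated, and 61.7% to 83.0% of spots were well above background. The number of arrays limits the precision. The test was checked on simulated data.

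The members, lists and tests were chosen with earlier results of these data known. All probes of the 10 genes are named. Of the wider list, genes are named if called with at least a 2-fold change by LPS in wt or called in a genotype comparison under LPS or of the LPS response, and 5 genes are named as most like C1ra. A gene of the wider list is not reported here and enters none of its counts. Marker lists were macrophage, fibroblast or stroma, neutrophil, B cell, T cell, dendritic cell, mast cell and Y-linked genes, with Xist beside the last. Alternatives were scaling, background correction, the authors' table, filters, the methods' two-sample test, the samples fitted, array weights, replicate blocks, age, a 2-fold minimum and leaving out arrays. Same-letter pairs of an LPS and a medium array had a correlation of deviations over 0.1 in 7 of 10 cases, same-number pairs in 7 of 10 and unlike-letter pairs in 5 of 30. All 10 same-letter pairs shared the age. As not every pair passed 0.1 and the labels do not say what the letters mark, the fit has no block.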

Additional observations from a re-analysis of the deposited data

Results flagged for a closer look

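Over 56 groups of 4 arrays, 6 held an array whose distance to the nearest other array was large against the range of its group, and chance gives about 1 in 20 groups. C1ra by its second probe (A_51_P384318) was 5.41 in MK2-/- medium replicate 2, with the nearest array at 7.82, and the difference between the first and the second C1ra probe was 1.81 on that array. The same difference was -0.42 in MK2-/- LPS replicate 1, with the nearest at -0.08. Cfp was 14.47 in MK2-/- LPS replicate 4, with the nearest at 14.95. Serping1 was 6.21 in wt medium replicate 2 by the probe A_55_P1992889, with the nearest at 7.30, and 4.61 in MK2-/- medium replicate 4 by the probe A_51_P376238, with the nearest at 3.36 and no array of that group well above background. C1ra by its first probe (A_55_P2015363) had an LPS response that differed between MK2/3-/- and MK2-/- by 1.92 (limma adjusted p = 0.0381).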

How the results depend on the processing

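The number of members called for LPS minus medium, 12 of 30 gene comparisons, stayed between 11 and 17 under the other settings and between 12 and 14 with each array left out. Genotypes compared under LPS gave 2 calls, but 1 with the methods' two-sample test after adjustment, with only the groups compared in the fit, without the arrays that lacked Y-linked signal, without the array of each group highest in fibroblast markers (chosen after seeing the data) or with a 2-fold minimum, 4 with array weights, and 1 to 2 with each array left out. Genotypes in medium gave 0 calls, but 4 by the methods' test unadjusted and 3 with array weights, and 0 with each array left out. The difference of the LPS response gave 1 call, but 0 with no filter on dim probes, only the groups compared, age as a covariate, or without the Y-linked or fibroblast arrays, 3 with array weights, and 0 to 1 with each array left out; the methods' test was not run for it. The difference between the C1ra probes gave 0 calls throughout (0 with each array left out), in a test that could hardly pass at these group sizes, so nothing on stability follows. Scaling to the 75th percentile reversed Cfp in MK2/3-/- (0.63) and Itgb2 in MK2/3-/- (0.0136), each called under 1 of the scalings. Among uncalled LPS differences of the members, the sign also turned for C1qb in all 3 genotypes and Cfp in wt and MK2-/-. It turned as well for C1qa in wt and MK2/3-/- and for C1qc and C5ar1 in MK2/3-/-. The replicate block, by array letter or by replicate number, added 1 call to the 12 (13 in both), Serping1 by A_55_P1992889 in MK2-/- (adjusted p = 0.0387 and 0.0405), and changed no other member call. Same-letter pairs correlated from -0.075 to 0.421 and unlike-letter pairs from -0.332 to 0.27, and whether the letters pair the arrays was not settled. With age as a covariate there were 17 calls in place of 12, with C1qc in all 3 genotypes and C1qa and Serping1 in MK2-/- added. For the wider genes named, 127 of 1023 values under the other settings and 121 of 1452 with an array left out were no longer called. The cause of these changes was not tested. Signal over background limited the dim probes of Serping1, C1s1, C1s2, Cd55 and Fcnb. Sizes of other genotype differences also moved with the setting. MK2/3-/- minus MK2-/- under LPS ran from 1.08 to 3.005 for C6 and from 1.45 to 3.15 for Cr2. MK2-/- minus wt under LPS ran from 0.46 to 1.88 for Vtn and from 1.12 to 2.825 for Hc. The call of Vtn in MK2/3-/- minus wt in medium was lost in 6 of 15 other settings.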
